A study of Homo sapiens with 20 samples.

Results

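The oncofetal genes of rhabdoid tumours are genes that are active in the embryo, low in most adult tissues and expressed again in some tumours. The set held 8 genes: LIN28A, LIN28B, IGF2BP1, IGF2BP3, IGF2, H19, HMGA2 and SALL4. They were chosen by name for what is known of them, not by a measured value, although earlier results of these data were known. Each was given a fixed window of the human genome (build hg19). IGF2 and H19 are neighbours and shared a window, so there were 7 windows of 70 to 270 kb. The windows were read in the H3K27ac libraries of G401, a human rhabdoid tumour cell line whose genotype is SMARCB1(-/-), after doxycycline had induced either GFP or SMARCB1. Both groups therefore carry the same loss of the endogenous gene and the same kind of induction, and the GFP libraries are the control. Each group had 2 libraries, out of 20 samples in 10 groups. The libraries for H3K4me1, H3K4me3, SMARCA4 and input were not analysed here. The dose and length of the induction are not given in the labels, a single cell line was used, and the labels do not say whether the 2 libraries of a group came from separate cultures, so the spread between them may be technical. Overlapping H3K27ac peaks were joined across libraries into 167933 regions, and 432 of these lay in the 7 windows.

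LIN28A and LIN28B are RNA-binding proteins that block maturation of the let-7 microRNAs. Among the messages that let-7 represses are those of HMGA2, a chromatin protein that bends DNA, of the IGF2BP proteins, which bind and stabilise messenger RNAs, and of LIN28B itself. IGF2 is a fetal growth factor, imprinted together with the long noncoding RNA H19, which is made from the other parental copy. SALL4 is a zinc-finger transcription factor of embryonic stem cells. H3K27ac, acetylation of lysine 27 of histone H3, marks promoters and enhancers in use, and SMARCB1 is a core subunit of the canonical SWI/SNF chromatin remodelling complexes whose loss defines rhabdoid tumours.

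LIN28B and IGF2BP3 were the opposite ends of what the windows showed, one without a peak and the other with the largest difference in kb covered, so the sequence around a start site of each is printed. The RefSeq promoter table (build GRCh38.p14, 250 bases before to 50 after a start) held 3 of the 8 genes, LIN28B, IGF2BP3 and H19, with 4 promoters. Each sequence reads 5′ to 3′ on the gene's strand, and the capitals mark CG dinucleotides, the sites of DNA methylation.
LIN28B, chr6:104940715-104941014 on the plus strand: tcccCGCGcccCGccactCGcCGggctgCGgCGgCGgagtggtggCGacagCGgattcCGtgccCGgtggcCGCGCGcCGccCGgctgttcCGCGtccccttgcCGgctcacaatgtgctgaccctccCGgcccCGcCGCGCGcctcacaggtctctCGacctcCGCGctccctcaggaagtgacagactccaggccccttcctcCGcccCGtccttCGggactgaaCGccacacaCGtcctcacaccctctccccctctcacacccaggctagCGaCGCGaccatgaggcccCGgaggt
IGF2BP3, chr7:23470442-23470741 on the minus strand: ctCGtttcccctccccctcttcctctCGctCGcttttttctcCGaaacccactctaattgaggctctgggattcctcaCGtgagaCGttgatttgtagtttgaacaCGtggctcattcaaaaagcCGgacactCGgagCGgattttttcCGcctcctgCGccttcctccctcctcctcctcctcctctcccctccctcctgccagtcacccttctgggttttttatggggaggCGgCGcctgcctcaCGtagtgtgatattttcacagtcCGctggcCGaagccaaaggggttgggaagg
The LIN28B sequence held 37 CG dinucleotides in its 300 bases and was 73% G or C. Of the 35116 promoters of the table, 11.3% held at least as many, and the median was 14. The IGF2BP3 sequence held 17, a number reached by 46.0% of promoters. The second LIN28B start in the table had 8 and the H19 start had 6. These positions are of another build than the peaks, so no peak was placed on a start site, and what follows is by window. A window may also take in part of a neighbouring gene. Neighbouring coding genes include DHDDS beside LIN28A, GIP beside IGF2BP1, MALSU1 beside IGF2BP3, LLPH beside HMGA2 and ATP9A beside SALL4. A region called by the name of a window is a region in that window, and which gene it belongs to was not tested.

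The peak lists differed in depth and length. GFP replicate 1 had the lowest background, 1.82 fragments expected by the caller at a summit genome-wide, against 3.74 in GFP replicate 2 and 4.09 and 3.89 in the SMARCB1 libraries. For SMARCB1 replicate 1 the caller's background is on fragments scaled by 0.855, and its 4.09 is 4.78 unscaled. Fold enrichment is the caller's ratio of fragments at the peak summit to the background it set at that summit, which can exceed the genome-wide value. GFP replicate 1 held the highest fold of any library in 5 of the 6 windows with peaks. Whether its lower background accounts for this was not tested. The lists held 79555 to 145533 peaks. The fragment counts at a summit given below are not corrected for depth, and those of SMARCB1 replicate 1 are unscaled. Over the genome, peaks covered 1.30 times as much sequence with SMARCB1 as with GFP, and the strongest peak of a 200 kb tile had a median ratio of 0.716. Every window was read against these shifts. With 2 libraries against 2, the exact two-sided permutation test over libraries cannot go below p = 0.333, so no difference in a window could be called, and the separation of the libraries is given with the values. The labels could not be checked at the SMARCB1 gene itself, since no hg19 annotation was used.

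**Figure D1:**
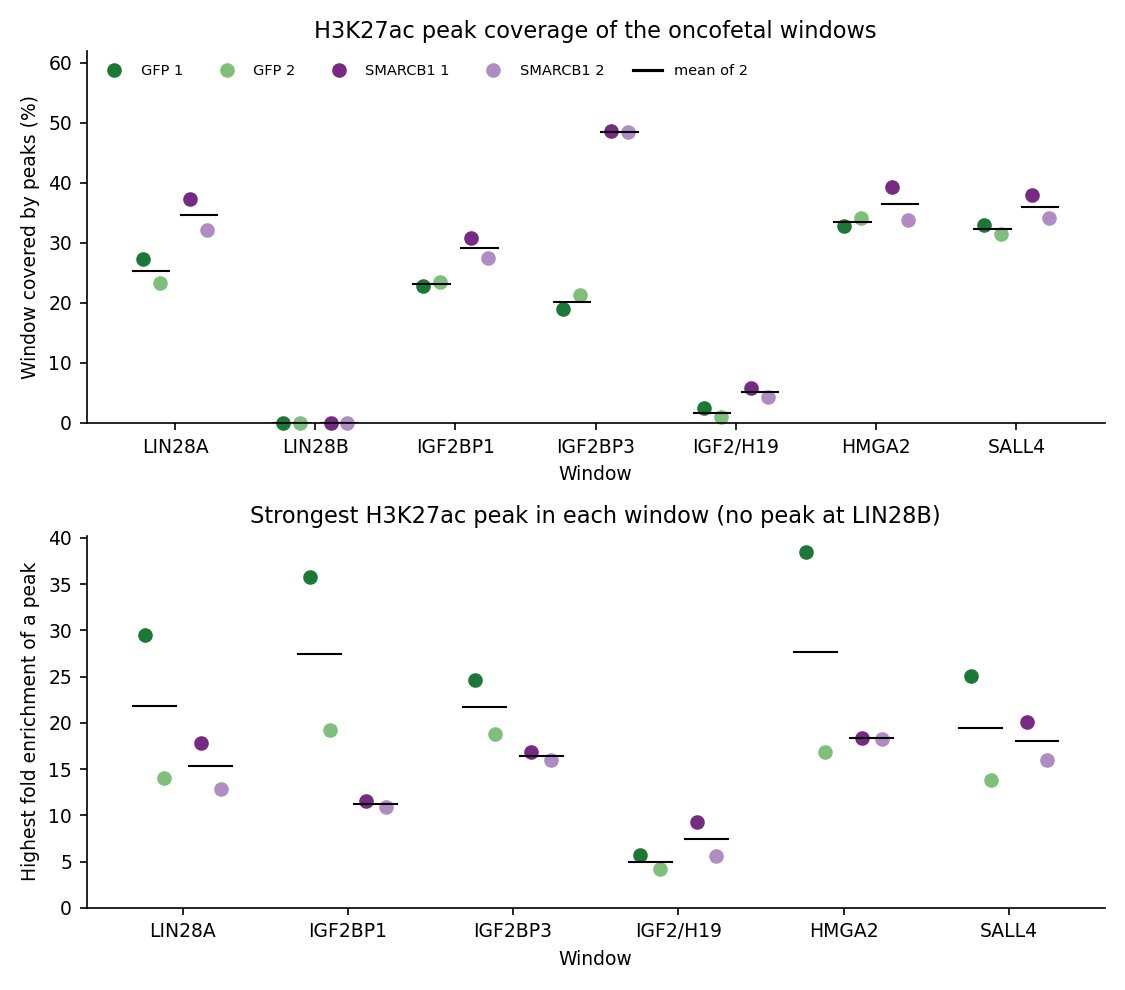
Upper panel, share of each window covered by H3K27ac peaks (%), and lower panel, highest fold enrichment of a peak in the window, for the 2 GFP-induced (green) and 2 SMARCB1-induced (purple) libraries, with the mean of each pair as a black line. The IGF2BP3 window had coverage of 48.61% and 48.42% with SMARCB1 against 18.96% and 21.28% with GFP, LIN28B had none in any library, and GFP replicate 1 was highest in 5 of the 6 windows of the lower panel.

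Peaks covered more of the window in both SMARCB1 libraries than in both GFP libraries at LIN28A, IGF2BP1, IGF2BP3, SALL4 and the window of IGF2 and H19. This is 5 of 7 windows, or 5 of the 6 with peaks. Over 5547 tiles of the genome with a peak in every library, 51.2% showed that same order, and 22.9% showed it with a mean at least doubled. The tiles were all 200 kb long, unlike the windows, and LIN28B would not have entered among them. At 2 windows, IGF2BP3 and that of IGF2 and H19, the mean was at least doubled. HMGA2 overlapped between groups and LIN28B was empty. In no window was coverage higher in both GFP libraries. With the 79555 strongest peaks of each list, 2 of the 7 windows kept this order, IGF2BP3 and that of IGF2 and H19, while LIN28A and IGF2BP1 overlapped and SALL4 turned. The strongest peak went the other way: its fold was higher in both GFP libraries at IGF2BP1 and IGF2BP3, against 47.3% of tiles. Thinned to the lowest background, IGF2BP3 overlapped and IGF2BP1 did not.

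Of the LIN28 pair, LIN28A had peaks in every library and LIN28B in none. The LIN28A window (chr1, 26.71 to 26.78 Mb, 70 kb) held 20 and 7 peaks with GFP and 32 and 25 with SMARCB1. They covered 19.2 and 16.3 kb with GFP and 26.2 and 22.4 kb with SMARCB1. Means of 17.7 ± 2.01 kb with GFP and 24.3 ± 2.62 kb with SMARCB1 (SD, n = 2) gave a ratio of 1.37 (two-sided exact permutation p = 0.333). The groups did not overlap, and the ratio was close to that of the genome. With equal numbers of strongest peaks they overlapped, at 18.9 and 16.3 kb with GFP and 23.2 and 18.8 kb with SMARCB1.

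The strongest LIN28A region, chr1:26735291-26748118, was a block of 12828 bp found in all 4 libraries. Its highest fold was 29.5 and 14.1 with GFP and 17.8 and 12.8 with SMARCB1, with overlap between the groups (two-sided exact permutation p = 0.667). The counts behind it, not corrected for depth, were 102 and 97 fragments at the summit with GFP, and 105 and 97 with SMARCB1. Over the genome-wide background of each library, the window's highest values were 36.5 and 20.7 with GFP and 22.9 and 20.0 with SMARCB1. These overlapped too. Peaks covered 12159 to 12522 bp of the block in every library. To the right of this block lay 3 regions found in every library whose fold was higher in both GFP libraries. The stronger pair were chr1:26757180-26758693, at 14.2 and 10.1 with GFP and 6.41 and 5.53 with SMARCB1, and chr1:26758812-26761313, at 15.6 and 6.85 with GFP and 5.16 and 3.53 with SMARCB1. Their ratios of SMARCB1 to GFP were 0.491 and 0.387.

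In all, 5 of the 27 LIN28A regions were gained (present in both SMARCB1 libraries, absent from both GFP libraries), and none was lost, the opposite pattern. Over the genome 17.5% of regions were gained and 3.94% lost, so the LIN28A share of 18.5% was near the background. All 5 were narrow and weak. They were chr1:26713185-26713807 (fold 4.22 and 4.30), chr1:26729133-26729717 (3.72 and 4.91), chr1:26751750-26752032 (3.39 and 3.07), chr1:26753978-26754500 (4.22 and 3.68) and chr1:26755350-26755708 (3.39 and 3.48). Peaks of fold 5 or more covered 15.4 and 14.7 kb with GFP and 15.3 and 14.1 kb with SMARCB1, which overlapped, so the added coverage at LIN28A lay in peaks below that fold. Fold ran lower with SMARCB1 over the genome, at a median ratio of 0.788 in regions that every library shared. A fixed fold is therefore not the same cut in both groups.

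LIN28B, whose window (chr6, 105.35 to 105.58 Mb) is 230 kb long, had 0 peaks in each of the 4 libraries. The nearest peak on the left ended 42.2 to 42.3 kb before the window in every library, with a fold of 12.4 and 7.18 with GFP and 4.79 and 6.61 with SMARCB1. On the right the first peak began 270 kb beyond the window with GFP in both libraries, and 191 and 195 kb beyond it with SMARCB1. The stretch without a peak was therefore 542 kb in both GFP libraries and 464 and 467 kb in the SMARCB1 libraries. Gaps that long or longer were 0.761% to 1.34% of all gaps between neighbouring peaks in these lists, or 1038 to 1108 gaps per list. This share is by number. By length such gaps take up a larger share, which was not worked out, so the empty window is not shown to be unusual. The caller numbers its peaks in order and the deposited lists had been filtered, but no number was skipped across the gap in any library. A peak list holds only what passed the caller's threshold, so H3K27ac below that threshold cannot be told from none.

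Of the messenger RNA-binding pair, IGF2BP3 showed the largest difference of the 7 windows in kb covered. Its window (chr7, 23.30 to 23.56 Mb, 260 kb) held 82 and 73 peaks with GFP and 158 and 159 with SMARCB1. These covered 49.3 and 55.3 kb with GFP and 126.4 and 125.9 kb with SMARCB1. Means of 52.3 ± 4.27 kb with GFP and 126 ± 0.347 kb with SMARCB1 (SD, n = 2) gave a ratio of 2.41 against 1.30 for the genome (two-sided exact permutation p = 0.333). The difference was 73.8 kb. An SD of 2 libraries whose spread may be technical does not measure the variation between cultures.

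**Figure D2:**
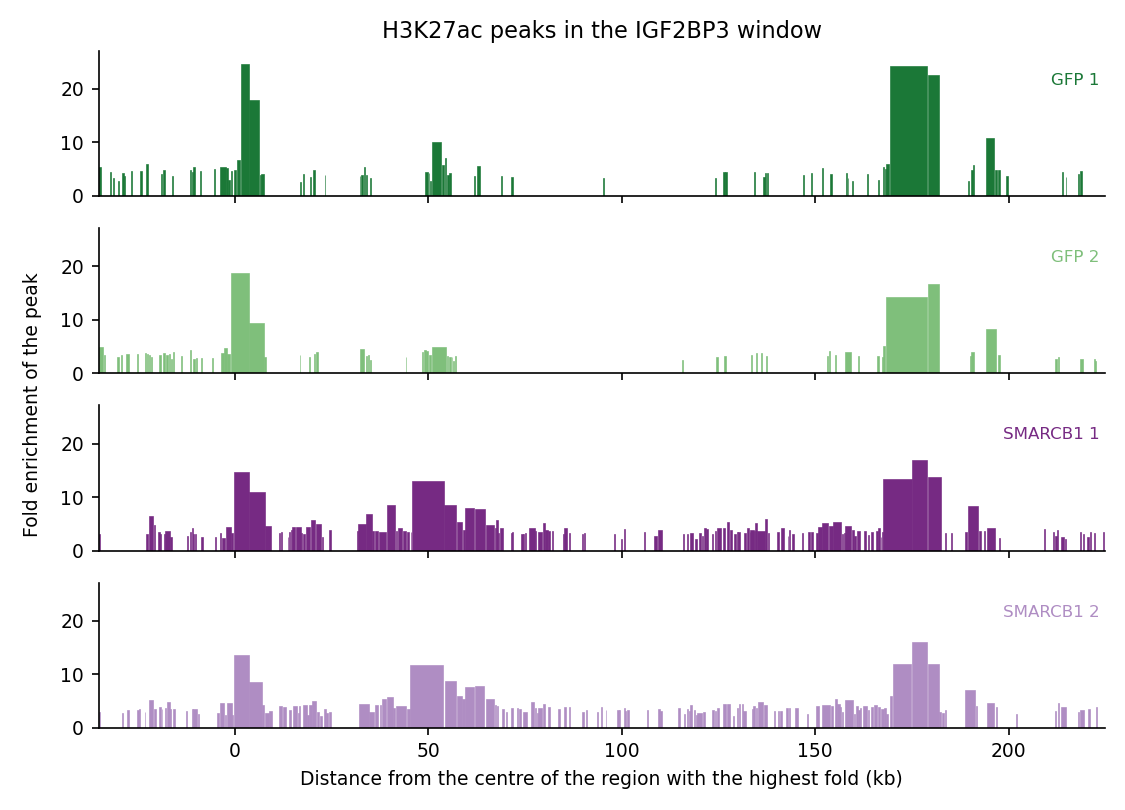
H3K27ac peaks in the IGF2BP3 window, 1 track per library, each bar a peak with its width in kb on the horizontal axis, measured from the centre of the region with the highest fold, and its fold enrichment as height. Both GFP tracks have strong peaks at the 2 ends and few between them, and both SMARCB1 tracks fill the interior, where coverage was 52.0% and 51.6% against 9.26% and 9.93% with GFP.

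The difference lay between 2 groups of strong regions that every library shared. The stretch between them, chr7:23344917-23502058, was 157 kb long and was picked after the values had been seen, so it is described without a test. It held 39 and 32 peaks with GFP and 110 and 109 with SMARCB1. Peaks covered 14.5 and 15.6 kb of it with GFP, or 9.26% and 9.93%, and 81.8 and 81.1 kb with SMARCB1, or 52.0% and 51.6%. On its left, over the 13.5 kb of chr7:23331406-23344916, coverage was 72.9% and 82.0% with GFP and 89.3% and 91.3% with SMARCB1. On its right, over the 15.7 kb of chr7:23502059-23517721, coverage was 87.1% and 90.8% with GFP and 96.2% and 89.3% with SMARCB1. The flanking blocks were thus mostly covered in every library and the stretch between them was not.

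Of the 169 IGF2BP3 regions 45 were gained, 26.6% against 17.5% for the genome, and 1 was lost. These counts moved under other settings, as given below, and the genome's share was not worked out for those. Within the 157 kb stretch 42 of 112 regions were gained and none was lost. The strongest gained regions by the lower of their fold values were chr7:23394764-23396943 at 7.92 and 7.57, chr7:23374430-23376679 at 8.58 and 5.68, and chr7:23392493-23393912 at 5.30 and 5.94. These lay on both sides of chr7:23380434-23392445, a region of 12012 bp with a peak in every library. There the highest fold was 10.16 and 4.911 with GFP and 12.95 and 11.67 with SMARCB1. The fragments at the summit, not corrected for depth, were 29 and 29 with GFP and 76 and 56 with SMARCB1. The region was split into 8 and 10 narrow peaks with GFP, covering 5525 and 7450 bp. With SMARCB1 it was split into 3 and 2 wide peaks, covering 11569 and 11666 bp. The single lost region, chr7:23304757-23305280, had fold values of 2.80 and 3.02.

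The strongest peaks of the IGF2BP3 window were lower in fold with SMARCB1. The highest fold in the window was 24.7 and 18.8 with GFP and 16.9 and 16.0 with SMARCB1. Means of 21.7 ± 4.17 with GFP and 16.4 ± 0.602 with SMARCB1 (SD, n = 2) gave a ratio of 0.757, near the tile median of 0.716 (two-sided exact permutation p = 0.333). The groups overlapped once the genome-wide background of each library was put under every peak, with 37.2 and 21.9 for GFP and 23.7 and 23.3 for SMARCB1, and after thinning, with 24.7 and 13.5 for GFP and 14.99 and 14.20 for SMARCB1. The difference of -5.29 in fold was -2.34 without GFP replicate 1 and -8.24 without GFP replicate 2. The region with the highest fold, chr7:23331406-23338865, had 24.7 and 18.8 with GFP and 14.6 and 13.7 with SMARCB1. At the other end, chr7:23502059-23514024 had 24.3 and 14.2 with GFP and 16.9 and 16.0 with SMARCB1, and these overlapped.

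Among regions with a peak in every library, IGF2BP3 also leaned toward SMARCB1. Of 21 such regions, 8 had a higher fold in both SMARCB1 libraries and 4 in both GFP libraries. Over the genome these orders were found in 10.2% and 40.4% of 27997 such regions. The IGF2BP3 median ratio was 1.005 against 0.788 for the genome. The counts were the same with the genome-wide background under every peak.

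At IGF2BP1 the fold of the strongest peaks was lower with SMARCB1 while a little more of the window was covered. The window (chr17, 47.04 to 47.17 Mb, 130 kb) held 29 and 30 peaks with GFP and 39 and 51 with SMARCB1, covering 29.6 and 30.6 kb and 40.1 and 35.7 kb. Means of 30.1 ± 0.734 kb with GFP and 37.9 ± 3.10 kb with SMARCB1 (SD, n = 2) gave a ratio of 1.26 that was near the genome's (two-sided exact permutation p = 0.333). With equal numbers of strongest peaks the groups overlapped, at 28.5 and 30.6 kb with GFP and 36.4 and 29.8 kb with SMARCB1. The strongest region, chr17:47071464-47085213, had a fold of 35.8 and 19.2 with GFP and 11.5 and 10.9 with SMARCB1. Means of 27.5 ± 11.7 with GFP and 11.2 ± 0.462 with SMARCB1 (SD, n = 2) gave a ratio of 0.407, lower than the 0.716 of the median tile (two-sided exact permutation p = 0.333). The difference of -16.3 in fold was -8.03 without GFP replicate 1 and -24.6 without GFP replicate 2.

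The summit of that IGF2BP1 region held 100 and 100 fragments with GFP and 120 and 82 with SMARCB1. These counts overlapped, but they are not corrected for depth. The background that the caller set there was 1.82 and 4.26 fragments with GFP and 8.0 and 6.6 with SMARCB1, above the genome-wide 4.09 and 3.89 of those lists. For SMARCB1 replicate 1 the 8.0 and 4.09 are on scaled fragments and the count of 120 is not. With the genome-wide background under every peak, the highest values of the window were 35.8 and 21.3 with GFP and 20.4 and 17.0 with SMARCB1, a ratio of 0.654. The order held and its size was reduced. Peaks covered 12360 and 12485 bp of the region with GFP and 13201 and 12546 bp with SMARCB1.

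The next IGF2BP1 region, chr17:47045078-47053001, was lower with SMARCB1 in fold and in extent. Its fold was 19.5 and 13.5 with GFP and 7.08 and 6.55 with SMARCB1. Peaks covered 6755 and 7522 bp of it with GFP and 3269 and 2799 bp with SMARCB1, from 54 and 63 fragments at the summit with GFP and 41 and 31 with SMARCB1. Beside it lay the 2 lost regions of the window. The region chr17:47037749-47040022, which crosses the left edge, had a fold of 10.98 and 7.601 with GFP, the highest of any lost region in the set, and chr17:47043985-47044861 had 3.90 and 4.01. In the other direction, chr17:47097318-47104669 was higher with SMARCB1, at 9.93 and 9.21 against 8.12 and 7.61. Of the 45 IGF2BP1 regions 8 were gained, 17.8% against 17.5% for the genome, and 2 were lost, 4.44% against 3.94%. The strongest gained were chr17:47129662-47131678 at 4.58 and 4.50, chr17:47108042-47108474 at 3.72 and 3.89, and chr17:47115561-47116208 at 3.55 and 4.25. The 2 lost regions lay to the left of the strongest region and the 8 gained to its right, but both shares were near the genome's.

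**Figure D3:**
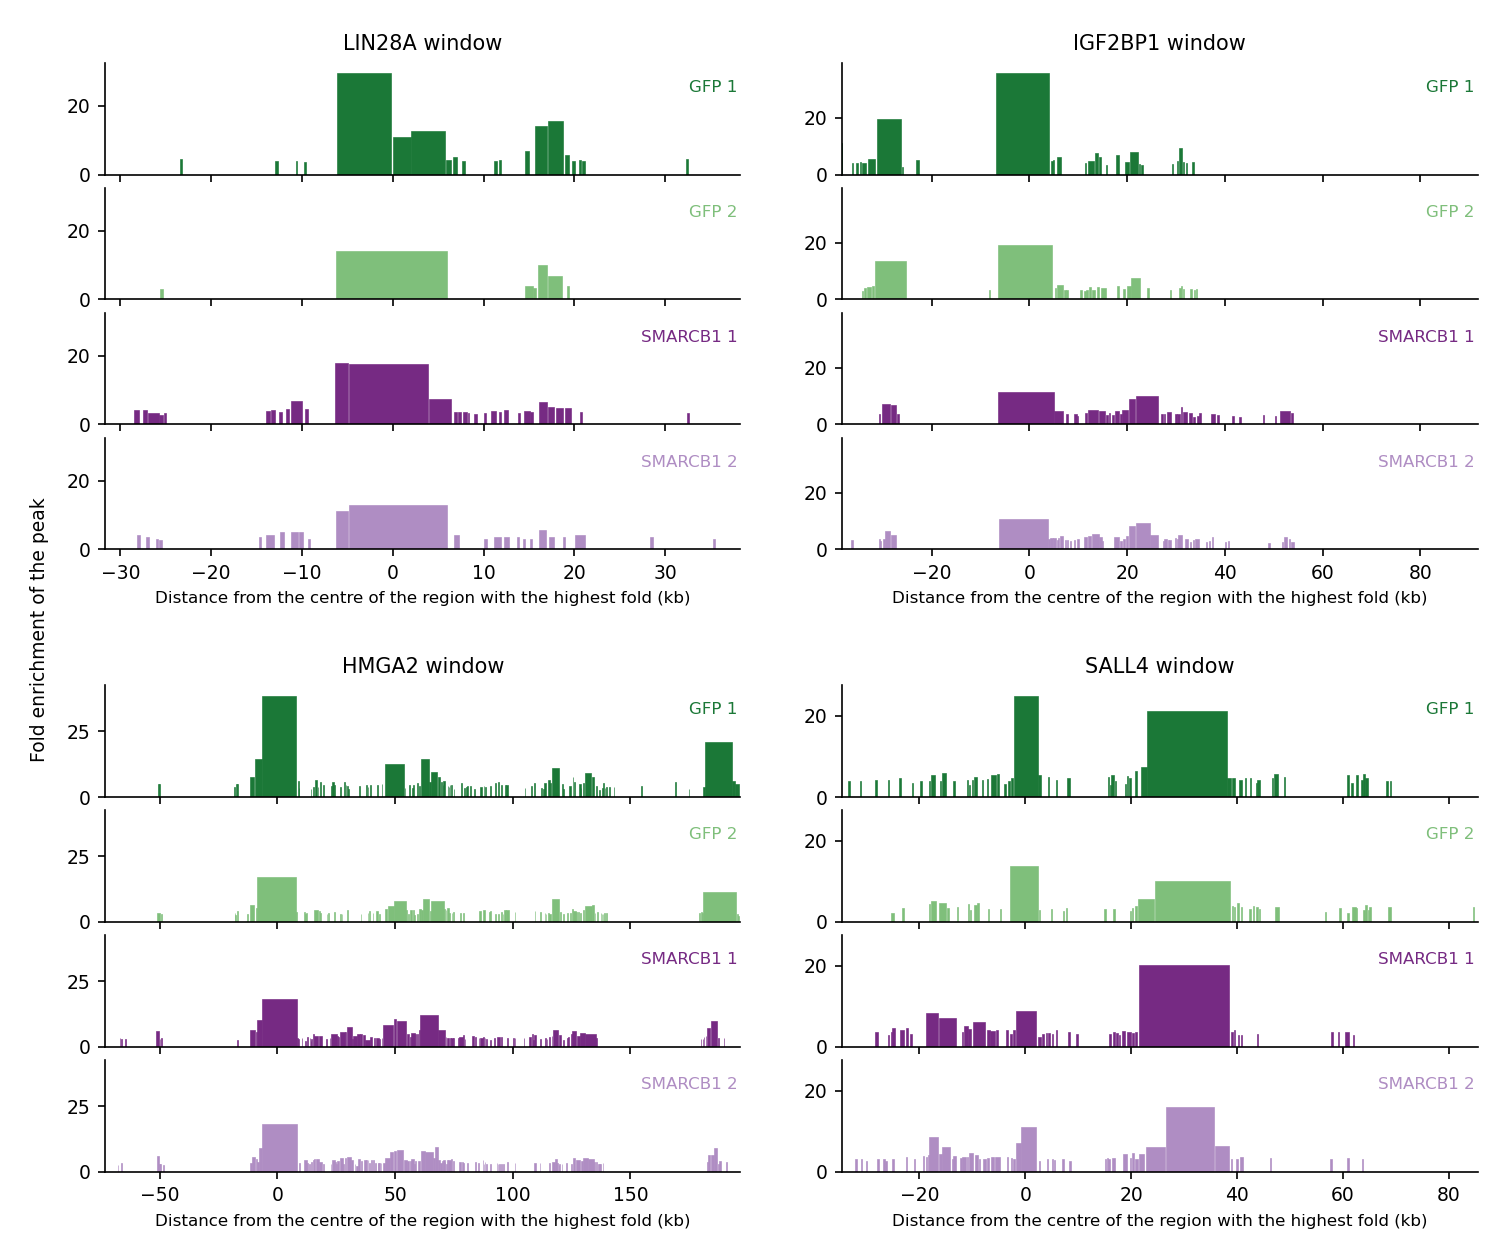
H3K27ac peaks in the windows of LIN28A, IGF2BP1, HMGA2 and SALL4, 1 track per library, each bar a peak with its width in kb, measured from the centre of the region with the highest fold, and its fold enrichment as height. At IGF2BP1 the main peak stood at 35.8 and 19.2 with GFP and 11.5 and 10.9 with SMARCB1, and at the right end of HMGA2 a block at 20.9 and 11.5 with GFP stood at 9.76 and 9.21 with SMARCB1.

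IGF2 and H19 had the least H3K27ac of the windows with peaks. Their window (chr11, 1.98 to 2.22 Mb, 240 kb) held 12 and 7 peaks with GFP and 19 and 14 with SMARCB1, covering 5.97 and 2.30 kb with GFP and 14.2 and 10.4 kb with SMARCB1. Means of 4.14 ± 2.59 kb with GFP and 12.3 ± 2.66 kb with SMARCB1 (SD, n = 2) gave a ratio of 2.97 (two-sided exact permutation p = 0.333). A mean at least doubled, with no overlap, was found in 22.9% of tiles, and the lengths here were small. The highest fold was 5.73 and 4.17 with GFP and 9.27 and 5.57 with SMARCB1, which overlapped (two-sided exact permutation p = 0.667).

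All peaks of this window lay at its 2 ends. No library had a peak in the 174 kb of chr11:2016305-2190078. The left end carried the difference. There the region chr11:2002981-2006088 had a fold of 9.27 and 5.57 with SMARCB1, 4.21 in GFP replicate 1 and no peak in GFP replicate 2. The region chr11:2009471-2012747 had the same pattern, at 4.73 and 4.29 with SMARCB1 and 3.84 in GFP replicate 1. The 3 gained of 18 regions, 16.7% against 17.5% for the genome, were chr11:1985153-1985614 (4.50 and 4.35), chr11:1985962-1987394 (4.65 and 3.83) and chr11:2015081-2015331 (3.75 and 3.48). At the right end the order was the reverse. The region chr11:2200596-2202213 had 5.57 and 3.61 with GFP and 3.30 and 3.13 with SMARCB1, and chr11:2202353-2202667 was lost, at 3.74 and 3.25 with GFP. Peaks of fold 5 or more covered 3.15 and 0 kb with GFP and 3.44 and 3.15 kb with SMARCB1, and the groups overlapped.

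**Figure D4:**
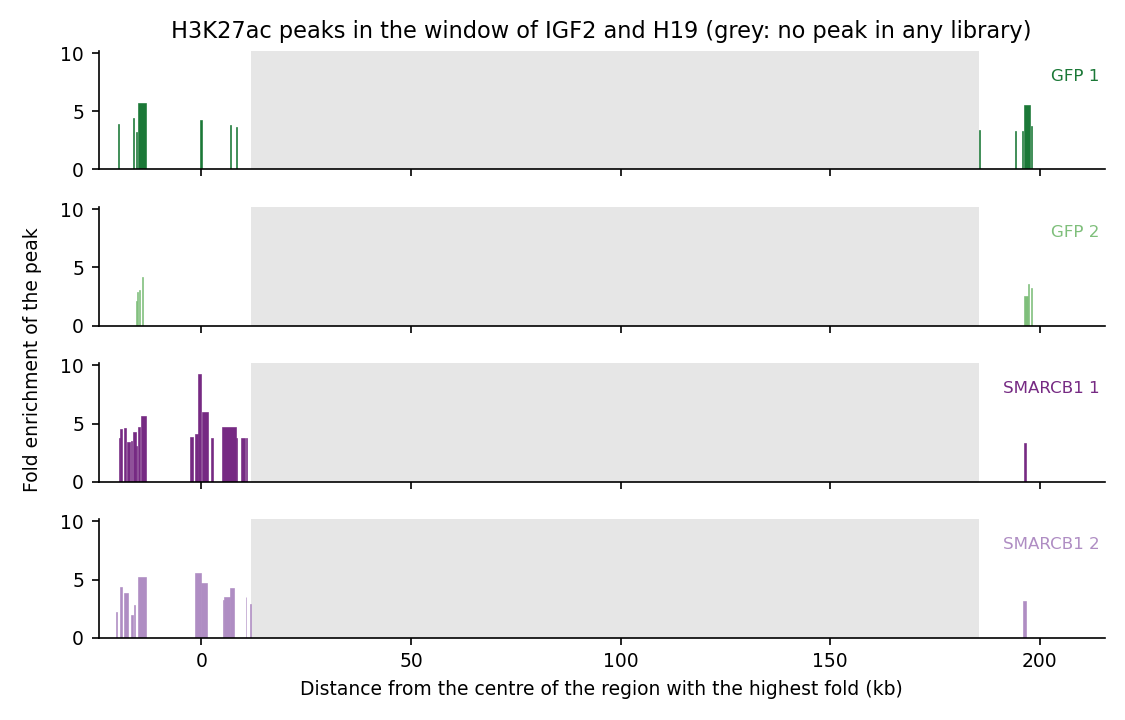
H3K27ac peaks in the shared window of IGF2 and H19, 1 track per library, each bar a peak with its width in kb, measured from the centre of the region with the highest fold, and its fold enrichment as height. The grey stretch of 174 kb had no peak in any library, and the region at 0 had a fold of 9.27 and 5.57 with SMARCB1, 4.21 in GFP replicate 1 and no peak in GFP replicate 2.

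HMGA2 had many peaks in every library and no separation in coverage. Its window (chr12, 66.15 to 66.42 Mb, 270 kb) held 99 and 94 peaks with GFP and 105 and 120 with SMARCB1, covering 88.7 and 92.4 kb with GFP and 106 and 91.2 kb with SMARCB1. The ratio was 1.09 (two-sided exact permutation p = 0.667). The strongest region, chr12:66213809-66232690, spanned 18882 bp and had a fold of 38.5 and 16.9 with GFP and 18.3 and 18.3 with SMARCB1. In GFP replicate 1 its summit, with 124 fragments, ranked 13 of 98251 peaks. The other libraries had 108, 149 and 118 fragments there. The groups overlapped in fold, and also in fragments, which are not corrected for depth.

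The right end of the HMGA2 window did separate. The region chr12:66404081-66419467 had a fold of 20.9 and 11.5 with GFP and 9.76 and 9.21 with SMARCB1. Peaks covered 14989 and 14901 bp of it with GFP and 5110 and 4442 bp with SMARCB1. Next to it, chr12:66419618-66421813, which crosses the right edge, was lost, at 6.02 and 5.07 with GFP. When the window was widened by 50 kb on each side, peaks covered 163 and 171 kb with GFP and 148 and 130 kb with SMARCB1, so the difference turned to 27.6 kb more with GFP. The other lost regions were chr12:66204752-66205274 and chr12:66362750-66363214, both at 3.90 and 3.59, and chr12:66361060-66361400 at 3.25 and 2.85. Only 8 of 103 HMGA2 regions were gained, 7.77% against 17.5% for the genome, and 4 were lost, 3.88% against 3.94%. The strongest gained were chr12:66281644-66282348 at 4.90 and 4.09, chr12:66248617-66249384 at 4.225 and 4.003, and chr12:66307295-66307693 at 3.72 and 3.68.

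SALL4 had the lowest share of gained regions among the windows with peaks. Its window (chr20, 50.35 to 50.47 Mb, 120 kb) held 56 and 45 peaks with GFP and 46 and 57 with SMARCB1, which overlapped. They covered 39.6 and 37.8 kb with GFP and 45.5 and 40.9 kb with SMARCB1, a ratio of 1.12 that was below the genome's 1.30 (two-sided exact permutation p = 0.333). This order turned when the 79555 strongest peaks of each list were used, at 37.7 and 37.8 kb with GFP and 35.4 and 30.9 kb with SMARCB1.

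The order of the 2 main regions of the SALL4 window differed between the groups, and which gene each belongs to was not tested. With GFP the strongest was chr20:50381672-50387508, at 25.0 and 13.8, against 8.85 and 11.1 with SMARCB1. With SMARCB1 the strongest was chr20:50405286-50423370, an 18085 bp block at 20.1 and 16.0, against 21.3 and 10.2 with GFP. The first region was higher in both GFP libraries and the second overlapped. The fragments at the first summit, not corrected for depth, overlapped, with 76 and 67 for GFP and 92 and 65 for SMARCB1. To the left, chr20:50365878-50368190 was higher with SMARCB1, at 8.42 and 8.60 against 5.31 and 5.28. Of 70 regions 3 were gained, 4.29% against 17.5% for the genome, and 5 lost, 7.14% against 3.94%. The gained were chr20:50361988-50362415 (4.56 and 3.68), chr20:50381020-50381394 (4.06 and 3.68) and chr20:50442198-50442656 (3.55 and 3.27). The lost all lay to the right of the block, at chr20:50426874-50427312 (4.60 and 3.17), chr20:50431497-50432446 (5.67 and 3.59), chr20:50447052-50447443 (5.31 and 3.38), chr20:50448770-50449454 (4.58 and 4.18) and chr20:50453091-50453735 (3.90 and 3.59).

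**Figure D5:**
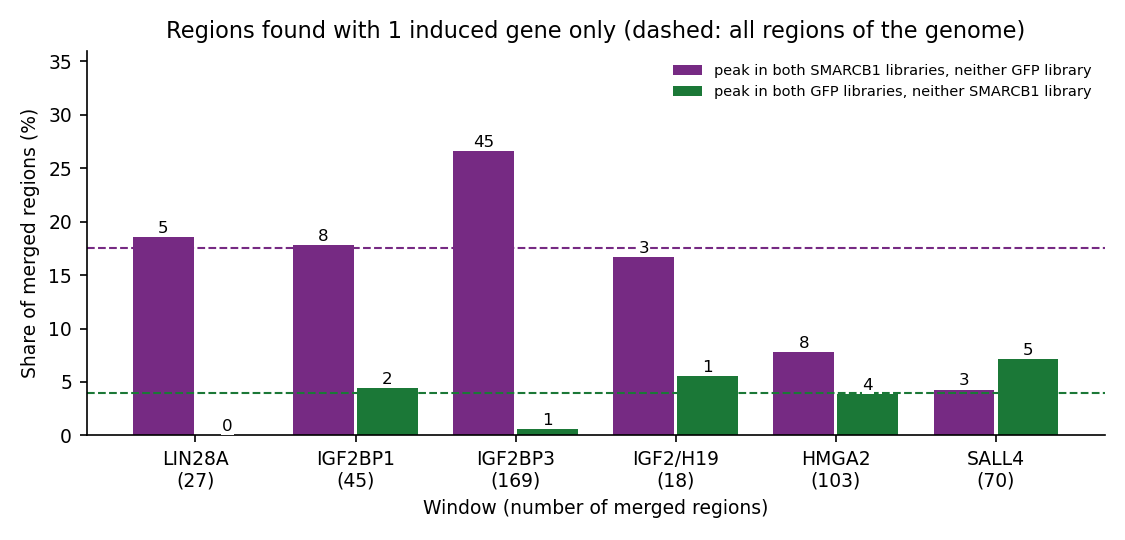
Share of merged regions of each window (%) with a peak in both SMARCB1 and neither GFP library (purple) or in both GFP and neither SMARCB1 library (green), with the number of such regions on each bar and the genome's shares of 17.5% and 3.94% as dashed lines. IGF2BP3 stood at 26.6% gained, HMGA2 at 7.77% and SALL4 at 4.29%.

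Over all 7 windows, 72 of 432 regions were gained, 16.7%, and 13 were lost, 3.01%. Both were near the shares of the genome, 17.5% and 3.94%, and 45 of the 72 lay in the IGF2BP3 window. A further 174 regions had a peak in a single library, 39 and 21 of them in the GFP and 57 and 57 in the SMARCB1 libraries. Of the 76 regions with a peak in every library, 22 were higher in both GFP libraries, 14 in both SMARCB1 libraries and 40 overlapped. In the genome 40.4% and 10.2% were ordered so, against 28.9% and 18.4% here.

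The authors' tables of stitched regions, which join neighbouring peaks and mark the top-ranked ones as super-enhancers, treated the windows differently. Between 13.5% and 22.7% of the peaks of a list lay outside every listed region, and whether these are at start sites was not tested. SALL4 and IGF2BP1 overlapped a marked region in all 4 tables. In each table a marked region spanned the strongest peak of the SALL4 and IGF2BP1 windows, so these marks are not shown to be away from start sites. In GFP replicate 1 and both SMARCB1 tables the SALL4 region ran on beyond the left edge of the window. Of its 201, 191 and 193 kb there, 104, 78.6 and 98.4 kb lay inside. LIN28A overlapped a marked region in GFP replicate 1 and in both SMARCB1 tables. The table of GFP replicate 2 left out 4 of its 7 LIN28A peaks, among them those of fold 10.1 and 6.85, and the other tables left out none, so its missing mark does not compare like with like. HMGA2 was marked in both GFP tables only, at its right end. The HMGA2 regions were chr12:66392375-66486225 and chr12:66402570-66513309 and ran on beyond the window. The HMGA2 window had 91 and 86 listed regions with GFP and 93 and 108 with SMARCB1, so most of its peaks stood singly in every table. At most 25 and 36 peaks were joined with GFP, and 8 and 7 with SMARCB1. The missing HMGA2 marks with SMARCB1 therefore may not compare like with like. IGF2BP3 was marked in GFP replicate 1 alone. In both SMARCB1 tables its peaks were listed singly, without joining, so these tables do not show whether its wide coverage would have ranked as a super-enhancer. The windows of LIN28B and of IGF2 and H19 had no mark in any table. The peaks of IGF2 and H19 were also listed singly in both SMARCB1 tables, against up to 10 joined in GFP replicate 1, so the same limit applies there. The tables marked 910 and 649 regions with GFP and 2003 and 1521 with SMARCB1. With the top 649 regions by the authors' rank from every table, SALL4 alone was marked in both SMARCB1 tables. In both GFP tables it was then SALL4 and IGF2BP1, since the HMGA2 region ranked 773 in GFP replicate 1.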

How the data were processed

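H3K27ac was measured by chromatin immunoprecipitation and sequencing of enzymatically cut chromatin, per the labels' protocols. BWA 0.7.12-r1039, SAMtools and bedtools are named in the submitters' processing notes, and the build is hg19. Peaks were called by MACS2 on each library separately and then filtered, per the deposited file names; the caller's version, control and filter are not given in the sources used here. A peak's deposited fold enrichment is the authors' ratio of its summit to the caller's background, and the deposited -log10 p and -log10 q are the authors' values too. The rank and super-enhancer mark of a stitched region are the authors' deposited score and flag from ROSE. Each table was tied to a library by the name it carries and by its coordinates, of which 100% of starts were in that library's list. Another 8 columns of signal in these tables were not used.

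Peaks of the 4 libraries overlapping by 1 bp or more were merged into regions. Fragments and background at each summit were solved from the fold and -log10 p within 0.001, which succeeded for 99.999% to 100% of peaks after a scale of 0.855 on the fragments of SMARCB1 replicate 1. The read totals are not in the files, so this background stands for depth, and the number of libraries limits the precision. Group means over libraries were set against each other by exact permutation, two-sided. Regions were named by rule: the one with the highest fold in any library, all gained or lost regions of a window where there were 6 or fewer, and otherwise the 3 with the highest lower fold of the 2 libraries; other regions were picked after their values were seen. The windows, the genes and the lists were chosen with earlier results of these data known. A planned count over other genes of the pathway, start sites and the SMARCB1 gene were not analysed here, since no hg19 annotation was used. The merging and the recovery of fragments were tested on simulated data. Other settings tried were thinning to the lowest background, equal numbers of peaks, a minimum -log10 q of 5, wider windows, other overlap rules, leaving out each library and the replicate number as a block. The software was matplotlib 3.10.9, scipy 1.17.1, pandas 2.3.3 and numpy 2.4.6 under Python 3.11.15.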

Additional observations from a re-analysis of the deposited data

How the results depend on the processing

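IGF2BP3 had more coverage in both SMARCB1 than in both GFP libraries under each of 5 other settings. The difference was 52.5 to 61.6 kb with a stricter q, equal numbers of peaks, thinning and a wider window. It was 26.8 kb with only peaks of fold 5 or more. The wider window still held the whole of the first one. Thinning dropped weak peaks but kept the others at full width, so it does not take depth out of covered length. Coverage was higher in both SMARCB1 libraries in 5 of 7 windows as reported, in 4 with the stricter q and after thinning, where SALL4 overlapped, in 2 with equal numbers, where LIN28A and IGF2BP1 overlapped and SALL4 turned, and in IGF2BP3 alone with fold 5 or more. Under this last restriction, which was chosen after the data had been seen like the genome-wide background, covered length turned to -0.347 kb at LIN28A and -11.4 kb at HMGA2. Fold ran lower with SMARCB1 over the genome, so this cut was not the same in both groups. HMGA2 also turned with equal numbers of strongest peaks (-5.46 kb and -21 peaks), after thinning (-3.68 kb and -9.5 peaks) and in the wider window (-27.6 kb). SALL4 turned with equal numbers of peaks (-4.59 kb and -25.5 peaks), with a -log10 q of at least 5 (-5 peaks) and after thinning (-4.5 peaks). The highest fold at IGF2 and H19 turned to -10.7 in the wider window, which took in a stronger peak outside the window as given. Leaving out each library in turn gave differences of -4.5 to 6.5 peaks at SALL4, and in highest fold of -24.6 to -8.03 at IGF2BP1, -8.24 to -2.34 at IGF2BP3, -14.2 to 1.24 at LIN28A, -20.2 to 1.42 at HMGA2 and -6.97 to 4.22 at SALL4; the 3 positive ends in fold came without GFP replicate 1, whose background was lowest. After thinning, the highest fold of IGF2BP3 overlapped between groups (-4.48, exact permutation p = 1). The stricter q and equal numbers left the strongest peak of each window in place and say nothing about its fold. The cause of these turns was not tested.

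Over all windows 72 of 432 regions were gained. The number was 45 of 255 with the stricter q and 40 of 334 with equal numbers of peaks. It was 12 of 76 with peaks within 1 kb joined, and 116 with reciprocal overlap, where peaks and not regions are counted. It was 99 to 174 when a library was left out, since fewer libraries are then asked for. It was 174 without SMARCB1 replicate 1 and 165 without SMARCB1 replicate 2. The number of lost regions, 13 of 432, was 27 of 334 with equal numbers and 2 of 76 with joining. It was 20 after thinning and 44 with reciprocal overlap. It was 17 to 57 when a library was left out, with 47 and 57 without GFP replicates 1 and 2 and 28 without SMARCB1 replicate 1. In the IGF2BP3 window 45 of 169 regions were gained and 1 lost. With the stricter q 29 of 100 were gained and 4 lost, and with equal numbers 26 of 118 and 6. After thinning 31 of 151 were gained and 4 lost, and with joining 6 of 27 and 0. The total number of regions changed with the setting, so a changed count alone does not show a changed share. The genome's shares are given here for the lists as reported only. Windows marked in every GFP table numbered 3, or 3 to 5 with a table left out, and windows marked in every SMARCB1 table numbered 3, or 1 with equal numbers of regions by rank. With the replicate number as a block, the IGF2BP3 difference in covered length was 73.8 kb, the same value, at p = 0.5, the smallest an exact sign-flip permutation of 2 pairs allows. In balanced pairs the block cannot change a difference. The pairs had opposite signs at HMGA2 in covered length, at SALL4 in peak number, and at both in highest fold. The numbers are not stated to pair the libraries, and 2 pairs were too few to check it.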
